A study of Homo sapiens with 8 samples.

Results

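The genes described here encode the eukaryotic translation initiation factors (eIFs), in MDA-MB-231 cells given the bacterial second messenger c-di-GMP or its vehicle. They are the protein-coding genes of the deposited tables whose symbol is EIF followed by a number, without the EIF2AK kinases. Although chosen with earlier results of these data known, that rule uses the symbol and the protein-coding label only. This gave 49 of the 16383 listed genes: 4 of eIF1, 11 of eIF2 and its exchange factor eIF2B, 14 of eIF3, 14 of eIF4, 5 of eIF5 and 1 of eIF6. A further 12 processed pseudogenes and 1 lincRNA with EIF symbols were left out. MDA-MB-231 is an established line of human breast cancer cells with mesenchymal features. The cells grew in DMEM with 10% fetal bovine serum and antibiotics, and received 5 µM c-di-GMP or PBS, the vehicle, for 24 h. Total RNA was sequenced from 4 libraries of each group. The labels do not say whether these came from separate cultures, so p-values reflect only how far these libraries differ, and part of that may be technical.

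Initiation brings the small ribosomal subunit, loaded with initiator tRNA by GTP-bound eIF2, to the capped end of an mRNA and on to its start codon. The cap is held by eIF4E, which is joined to the helicase eIF4A by the scaffold eIF4G, while eIF3 bridges the mRNA and the ribosome. eIF2B recharges eIF2 with GTP, and its block by phosphorylated eIF2 is the central step of the integrated stress response. In tumour cells the eIF4E branch is known as an output of mTOR signalling, which acts through the eIF4E-binding proteins.

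The libraries held 16151360 to 18040010 counts, so that 3 counts, the limit for a gene with 0 counts, equalled 0.166 to 0.186 CPM (counts scaled to the library total), a limit that covers counting error only. Vehicle replicate 3 stood apart: its log2 CPM correlated with the other 7 libraries across genes at 0.849 to 0.867, against 0.989 to 0.995 among those. Counts of calls are therefore given with all 8 libraries and without that library, and values of single genes without it unless said otherwise. The marker ranges that follow are over all 8 libraries. Of the markers of the line, VIM stood at 638 to 1458 CPM, CD44 at 691 to 891 CPM and AXL at 275 to 1321 CPM. SPARC, at 0.173 to 1.03 CPM, was near the limit. ESR1, PGR and the leukocyte gene PTPRC were not listed, CDH1 stood at 1.07 to 4.11 CPM, and the epithelial keratin KRT8 at 695 to 1038 CPM. ERBB2, GATA3 and EPCAM were listed, at 47.1 to 115, 9.53 to 16.4 and 11.7 to 39 CPM. So was the endothelial gene PECAM1, at 8.48 to 12 CPM. Vehicle replicate 3 gave the highest value for VIM, KRT8, GATA3, EPCAM and PECAM1 and the lowest for CD44, AXL, CDH1 and ERBB2.

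With all 8 libraries no initiation factor gene passed the threshold. The quasi-likelihood test of edgeR, adjusted over all genes by Benjamini and Hochberg's method, called 0 of the 49, and 0 were under 0.05 before adjustment. Of all 15415 genes tested 0% were called, and 6.23% were under 0.05 before adjustment. DESeq2 called 1, EIF4G2, and 4 were under 0.05 before adjustment, with 0.869% of all genes called. By limma-voom 0 were called, and 1 was under 0.05 before adjustment. The median log2 fold change, c-di-GMP against vehicle, was -0.10 for the 49 and -0.05 for all genes, and with library totals in place of TMM it was 0.08 for both, a shift of all genes by over 0.1. On simulated counts with the spread of these 8 libraries, 0% of the genes changed by 1.5-fold and 86% of those changed by 4-fold were recovered. The simulation gave every gene and library the same spread, while in these data vehicle replicate 3 stood apart. At such an even spread small changes were not detectable.

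Without vehicle replicate 3, 20 of the 49 genes rose and 1 fell (edgeR, adjusted p under 0.05 over all genes tested). The rises make up 40.8% of the members, while 13.5% of all 15647 genes tested rose, and the fall 2.04%, while 16.2% of all genes fell. From here on, rose and fell refer to this fit of 7 libraries unless another is named. The rises were small, from 0.13 to 0.26 on the log2 scale, which is about 1.1-fold to 1.2-fold. In these bulk samples more cells with a transcript and more of it per cell cannot be told apart. They took in all 3 subunits of eIF2, the cap-binding protein gene EIF4E, the alternative scaffold EIF4G2, the helicase EIF4A2, and 5 eIF3 subunits. The fall was that of EIF3CL, described with its near-identical copy EIF3C. The median log2 fold change of the 49 was 0.10, against 0.0014 for all genes, and 36 of the 49 were above 0, where 50.2% of all genes were. All 49 passed the filter on low counts in both fits. On simulated counts with the spread of the 7 libraries, 84% of the genes changed by 1.3-fold were recovered, with 10 false calls among 15647 genes. The simulation gave all genes the same spread and no trend on GC content. Its smallest change, 1.3-fold, exceeded the rises here, so the recovery of such small rises was not tested.

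In 18 of the 20 rises every c-di-GMP library lay above vehicle replicates 1, 2 and 4. With EIF3D, which did not pass the test, 19 of the 49 did so in CPM (38.8%), against 16.9% of all genes. In CPM 0 of the 49 lay below, against 18.5%. On the TMM scale the groups of EIF3D overlapped, EIF5A lay above and EIF4ENIF1 lay below, and shares over all genes were not computed for the 7 libraries. In 8 of the 19, EIF2S3, EIF2A, EIF3J, EIF4A2, EIF4E, EIF4EBP2, EIF4G2 and EIF5, the c-di-GMP libraries also lay above vehicle replicate 3 in CPM, which is 16.3% of the members, against 9.93% of all genes. After TMM scaling 4 of these 8 still did, EIF2S3, EIF4E, EIF4EBP2 and EIF4G2, which is 8.16% of the members, against 6.93% of all genes. With all 8 libraries the log2 fold changes of the 8 genes lay between 0.06 and 0.24, and none passed. In the other 12 of the 20 rises the fitted log2 fold change over all 8 libraries was negative: -1.64 for EIF3K, -0.87 for EIF3M, -0.83 for EIF2B3, and from -0.55 to -0.08 for EIF1AX, EIF1B, EIF2B1, EIF2S1, EIF2S2, EIF3E, EIF3H, EIF4E2 and EIF5B. In each of these 12 vehicle replicate 3 read above the mean of the other vehicle libraries in CPM. When each of the 7 libraries was left out in turn, 12 of the 20 rises passed every time. The 8 that were lost at least once were EIF1AX, EIF2B1, EIF2B3, EIF2S3, EIF3K, EIF4E2, EIF4EBP2 and EIF5. Correction for GC content, described after the single genes, ended the call of 12 of the 20.

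**Figure D1:**
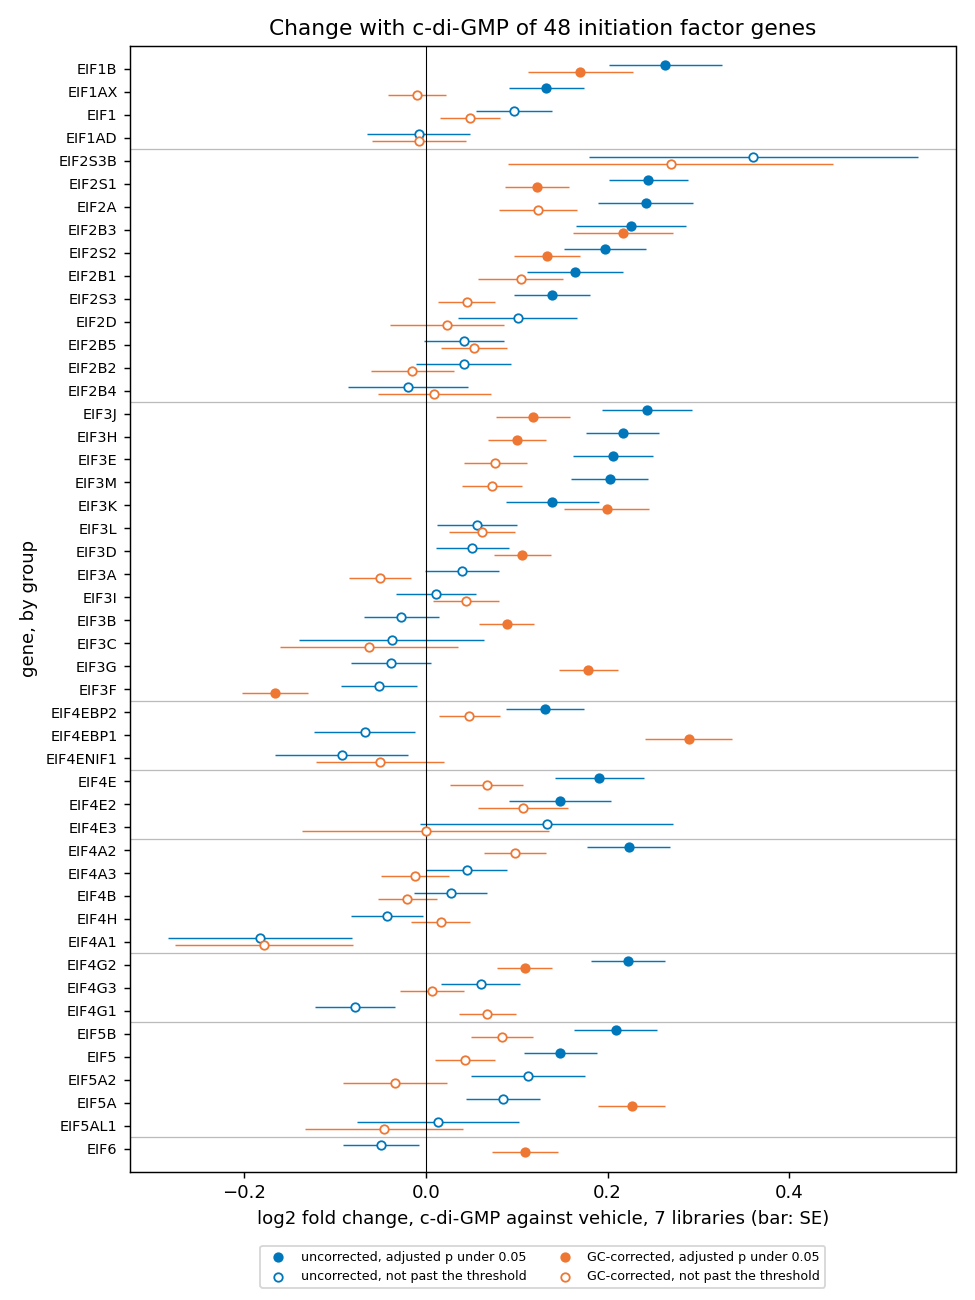
Log2 fold change (horizontal axis, c-di-GMP against vehicle, 7 libraries without vehicle replicate 3, bars show the SE) of 48 initiation factor genes, ordered by group, uncorrected in blue and corrected for GC content in orange. Filled points passed the adjusted threshold, and EIF3CL, at -1.63, is left off so that the others can be read. The uncorrected rises lie between 0.13 and 0.26.

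**Figure D2:**
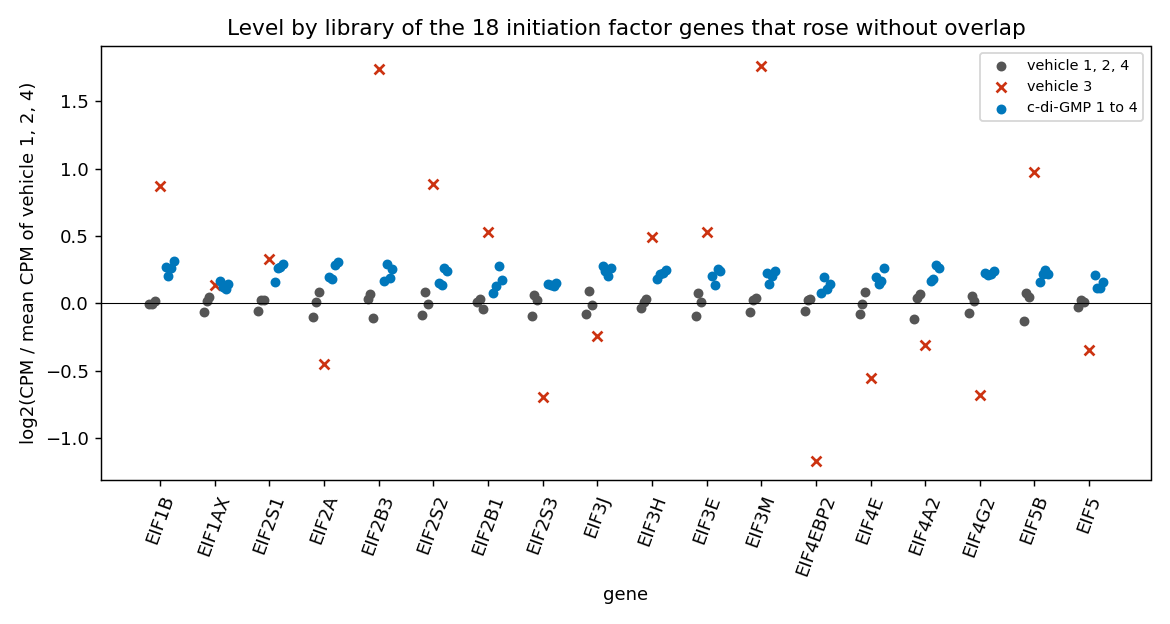
Level in each library of the 18 genes that rose with groups that do not overlap, as log2 of CPM over the mean CPM of vehicle replicates 1, 2 and 4 (vertical axis). Blue points (c-di-GMP) lie above grey points (vehicle) for each gene, while vehicle replicate 3 (red crosses) lies above them for some genes and below for others.

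The start of the transcript is shown for some members because many mRNAs of the translation machinery begin with a 5′ terminal oligopyrimidine (TOP) tract, a C followed by pyrimidines, through which mTOR and LARP1 are known to control their use. RefSeq promoter windows (GRCh38.p14) matched 41 of the 49 genes by symbol. A TOP-like start, here a C with at least 4 of C or T after it on the sense strand, beginning within 2 bases of the RefSeq start, was present in 14 of the 41 (34.1%), against 10.5% of all 27305 promoters in the table. Of those 14 genes, 9 rose, and 17 of the 41 matched genes rose. The stretches below run from 20 bases before the RefSeq start to 10 bases after it, 5′ to 3′, with the pyrimidine run in capitals. The first 9 belong to genes that rose.
EIF2S3, chrX:24054936-24054965, plus strand: cagccggggtgatttccttcCTCTTTTggc
EIF2A, chr3:150546767-150546796, plus strand: aactctcacccgagcggtttCTCTTTCCgg
EIF3J, chr15:44537127-44537156, plus strand: tgactcacctccgccgtgctaaCTCCTCgc
EIF3K, chr19:38619168-38619197, plus strand: gtcgtttccgtttccaccacCTCTTCCTgt
EIF3M, chr11:32583811-32583840, plus strand: gcgtcgcgcggcccagttccCTTTTCCggt
EIF4A2, chr3:186783557-186783586, plus strand: gggtggttgggcgccgctgtCTTTTCagtc
EIF4E2, chr2:232550669-232550698, plus strand: gacccggtggagcggaagtcaCTCCCTgag
EIF4EBP2, chr10:70404125-70404154, plus strand: tctggctcccgccttcgcccgCTTCCggtc
EIF4G2, chr11:10807987-10808016, minus strand: gcggggaggttgtcggaagcaCTTCCCTaa
From 3 genes that did not rise, EIF3D, EIF3F and EIF4B, the stretches were as follows.
EIF3D, chr22:36529157-36529186, minus strand: ccgctgcgcgcgcatgtttcCTCTTTTCCT
EIF3F, chr11:7987317-7987346, plus strand: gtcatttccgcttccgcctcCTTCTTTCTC
EIF4B, chr12:53006436-53006465, plus strand: cgtgattgcctcatccgggtCTTTTgcgtt
Such a run was thus present both in genes that rose and in genes that did not. A match describes these letters only; the start used in these cells was not measured.

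The ternary complex opens the series of factors. EIF2S1 (chr14:67359997-67386516, plus strand) encodes eIF2α, the subunit that stress kinases phosphorylate, and stood at 177, 188 and 188 CPM in replicates 1, 2 and 4 of the vehicle group, at 205, 221, 223 and 226 CPM in replicates 1 to 4 of the c-di-GMP group and at 231 CPM in vehicle replicate 3. Its 4 c-di-GMP libraries lay above the other 3 vehicle libraries but below vehicle replicate 3. The means were 184 ± 5.92 CPM (SD, n = 3) for the vehicle group and 219 ± 9.11 CPM (SD, n = 4) for the treated one, a log2 fold change of 0.25 ± 0.04 (SE, edgeR adjusted p = 0.000153). EIF2S2 (chr20:34088298-34112332, minus strand), the β subunit, read 239.7, 271 and 255 CPM with vehicle and 284, 281, 305 and 301 CPM with c-di-GMP, in the same library order, with vehicle replicate 3 at 471 CPM. Its groups did not overlap either, with a log2 fold change of 0.20 ± 0.05 (adjusted p = 0.0018). EIF2S3 (chrX:24054716-24077971, plus strand), the γ subunit that binds GTP and the initiator tRNA, stood at 236, 263 and 256 CPM in replicates 1, 2 and 4 of the vehicle group, at 278, 277, 274 and 279 CPM in replicates 1 to 4 of the c-di-GMP group and at 155 CPM in vehicle replicate 3. Here vehicle replicate 3 was the lowest of the 8, so that all c-di-GMP libraries exceeded all 4 vehicle libraries. The log2 fold change was 0.14 ± 0.04 (adjusted p = 0.0137), and the call was lost without c-di-GMP replicate 1 or 4. With all 8 libraries the 3 subunits had -0.08 ± 0.25, -0.37 ± 0.38 and 0.15 ± 0.10 in that order, and none passed. EIF2S3B, a retrocopy of EIF2S3, was read at 2.75 to 5.82 CPM outside vehicle replicate 3 and did not pass (log2 fold change 0.36 ± 0.18, adjusted p = 0.14). Reads may be split between the copies.

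Of the 5 subunits of eIF2B, 2 rose. EIF2B1 (chr12:123620406-123633766, minus strand), the α subunit of the regulatory part of the complex, read 64.4, 65.6 and 62.4 CPM in vehicle replicates 1, 2 and 4 and 67.5, 70.3, 77.7 and 72.4 CPM in c-di-GMP replicates 1 to 4, with 92.4 CPM in vehicle replicate 3. The gap between the groups was narrow, and the log2 fold change was 0.16 ± 0.05 (adjusted p = 0.0199), a call lost without vehicle replicate 4 or without c-di-GMP replicate 3 or 4. EIF2B3 (chr1:44850522-44986722, minus strand), the γ subunit of the catalytic part, read 38.6, 39.7 and 35.1 CPM with vehicle and 42.5, 46.4, 43.1 and 45.1 CPM with c-di-GMP, against 126 CPM in vehicle replicate 3, which was 3.34 times the mean of the other vehicle libraries. Its log2 fold change was 0.23 ± 0.06 (adjusted p = 0.0065), lost without vehicle replicate 4. EIF2B5, which carries the exchange activity itself, read 93.1, 93.5 and 93.4 CPM and 92.5, 96.9, 99 and 96.3 CPM, and did not pass (95% interval of the log2 fold change -0.04 to 0.13). EIF2B2 and EIF2B4 did not pass either, with intervals of -0.06 to 0.14 and -0.15 to 0.11. EIF2B2 shares 23.6% of its exon bases with genes on the opposite strand, EIF2B1 15.6%, and whether the counting kept strand is not stated.

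EIF2A and EIF2D encode single proteins that can deliver initiator tRNA without eIF2. EIF2A (chr3:150546678-150584242, plus strand) stood at 59.4, 64.1 and 67.4 CPM in replicates 1, 2 and 4 of the vehicle group, at 72.9, 72.1, 77.5 and 78.7 CPM in replicates 1 to 4 of the c-di-GMP group and at 46.5 CPM in vehicle replicate 3. It rose by 0.24 ± 0.05 on the log2 scale (adjusted p = 0.00107), and the c-di-GMP libraries lay above all 4 vehicle libraries. EIF2D had 0.10 ± 0.07 and did not pass (adjusted p = 0.26). In all, 6 of the 11 genes of eIF2 and eIF2B rose and 0 fell, with a median log2 fold change of 0.16.

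eIF3 is the largest initiation factor, and its subunits did not move as one. EIF3E, EIF3H, EIF3J, EIF3K and EIF3M rose, while EIF3A, EIF3B, EIF3D, EIF3F, EIF3G, EIF3I and EIF3L did not pass. EIF3E, a subunit of the structural core of eIF3, stood at 262, 295 and 282 CPM in replicates 1, 2 and 4 of the vehicle group, at 321, 307, 333 and 330.1 CPM in replicates 1 to 4 of the c-di-GMP group and at 403 CPM in vehicle replicate 3. EIF3H, another subunit of that core, read 183, 189 and 191 CPM with vehicle and 212, 218, 219 and 223 CPM with c-di-GMP, with 263 CPM in vehicle replicate 3. EIF3M (chr11:32583798-32606262, plus strand) read 154, 165 and 166 CPM and 189, 179, 186 and 191 CPM, but 549.9 CPM in vehicle replicate 3, 3.4 times the other vehicle mean. For these 3 core subunits the 7 libraries fell into groups that do not overlap, while vehicle replicate 3 exceeded every c-di-GMP library. Their log2 fold changes were 0.21 ± 0.04 for EIF3E (adjusted p = 0.000968), 0.22 ± 0.04 for EIF3H (adjusted p = 0.000278) and 0.20 ± 0.04 for EIF3M (adjusted p = 0.000822). EIF3J (chr15:44537057-44563029, plus strand), a loosely attached subunit near the mRNA entry, stood at 63.2, 71.3 and 66.3 CPM in replicates 1, 2 and 4 of the vehicle group, at 81.1, 78.9, 76.9 and 80.4 CPM in replicates 1 to 4 of the c-di-GMP group and at 56.7 CPM in vehicle replicate 3. All 4 c-di-GMP libraries exceeded all 4 vehicle libraries, and the log2 fold change was 0.24 ± 0.05 (adjusted p = 0.000647). EIF3K (chr19:38619082-38636955, plus strand) read 84.2, 98.9 and 89.6 CPM and 96.6, 102, 97.9 and 104 CPM, so that its groups overlapped, with 613 CPM in vehicle replicate 3. Its rise of 0.14 ± 0.05 (adjusted p = 0.0399) was lost without any one of the 7 libraries other than vehicle replicate 2.

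The subunits that did not pass include those of highest level. By FPKM, which allows levels of different genes to be compared per length, EIF3I led the group with 123, 121 and 120.1 FPKM in vehicle replicates 1, 2 and 4 and 124, 117, 133 and 122 FPKM in c-di-GMP replicates 1 to 4, and 459 FPKM in vehicle replicate 3. EIF3A, the largest subunit, followed in these 7 libraries at 101, 99.6 and 98 FPKM and 99.8, 108, 105 and 103 FPKM, with 49.9 FPKM in vehicle replicate 3. Their groups overlapped, and the 95% intervals of the log2 fold change were -0.08 to 0.10 for EIF3I and -0.04 to 0.12 for EIF3A. EIF3B, a scaffold subunit, had an interval of -0.11 to 0.05, EIF3D, which can itself bind the cap of some mRNAs, one of -0.03 to 0.13, and EIF3G, an RNA-binding subunit, one of -0.12 to 0.05. EIF3F had -0.13 to 0.03 and EIF3L -0.03 to 0.14. For EIF3L, 41.1% of exon bases are shared with another gene on the same strand, so its counts are uncertain. Over the 14 eIF3 genes the median log2 fold change was 0.05.

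**Figure D3:**
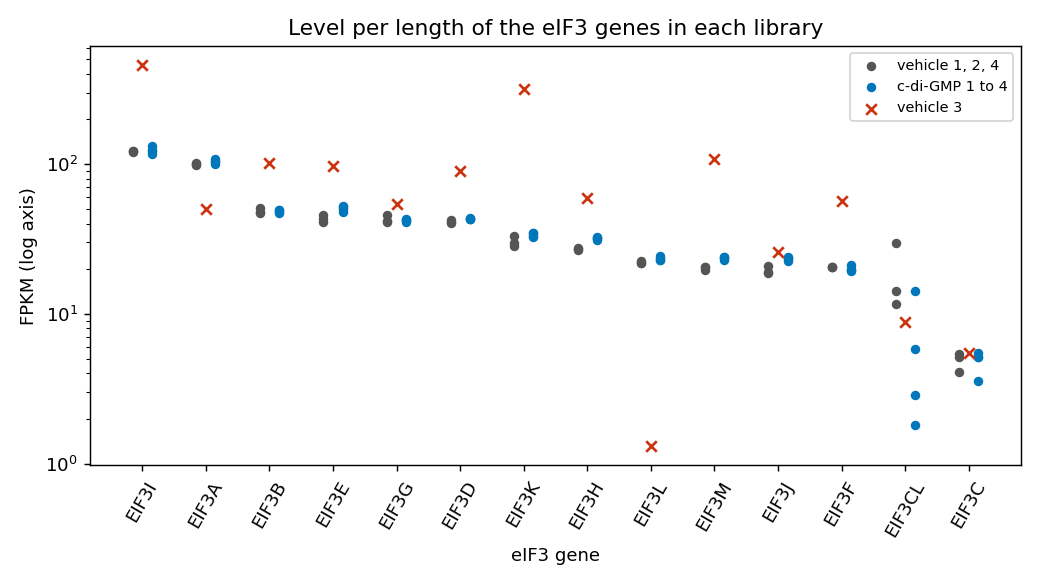
Level per length (FPKM, log axis) of the 14 eIF3 genes in each library, ordered by mean level. For most genes the vehicle (grey) and c-di-GMP (blue) libraries lie close together, EIF3CL is spread in both groups, and vehicle replicate 3 (red crosses) departs in either direction, furthest for EIF3L.

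EIF3C and EIF3CL encode nearly the same protein and lie at 2 places on chromosome 16, chr16:28688558-28735730, plus strand, and chr16:28379579-28403879, minus strand. EIF3CL was the 1 initiation factor gene that fell. It stood at 38, 98.7 and 47.9 CPM in replicates 1, 2 and 4 of the vehicle group, at 46.6, 19.1, 5.93 and 9.46 CPM in replicates 1 to 4 of the c-di-GMP group and at 18.8 CPM in vehicle replicate 3, so that its groups overlapped. The log2 fold change was -1.63 ± 0.34 (edgeR adjusted p = 0.000887), and DESeq2 did not call it (adjusted p = 0.109). EIF3C read 38, 30.8 and 41 CPM in vehicle replicates 1, 2 and 4 and 37.8, 40.4, 38.2 and 26.4 CPM in c-di-GMP replicates 1 to 4, with a log2 fold change of -0.04 ± 0.10 (adjusted p = 0.819). The 2 genes together held 1354, 2336 and 1544 counts in vehicle replicates 1, 2 and 4, 1363, 1027, 781 and 630 counts in c-di-GMP replicates 1 to 4 and 758 in vehicle replicate 3. In vehicle replicate 1 both genes were listed with 677 counts. How reads that match both copies were assigned is not given in the sources used here, and the fall of EIF3CL is uncertain for that reason.

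Of the cap-binding proteins, EIF4E and EIF4E2 rose, and both calls ended with GC correction (adjusted p = 0.297 and 0.16). EIF4E (chr4:98871684-98930637, minus strand), the cap-binding subunit of eIF4F, stood at 67.6, 71 and 75.6 CPM in replicates 1, 2 and 4 of the vehicle group, at 81.6, 78.9, 80.2 and 85.4 CPM in replicates 1 to 4 of the c-di-GMP group and at 48.7 CPM in vehicle replicate 3. Its c-di-GMP libraries lay above all 4 vehicle libraries, with means of 71.4 ± 4.03 CPM (SD, n = 3) for the vehicle group and 81.5 ± 2.82 CPM (SD, n = 4) for the treated one for the 7 libraries and a log2 fold change of 0.19 ± 0.05 (adjusted p = 0.00475). EIF4E2 (chr2:232550052-232583644, plus strand) encodes 4EHP, which binds the cap without recruiting the scaffold. It read 48.5 to 54.8 CPM with vehicle in replicates 1, 2 and 4 and 53.4, 59.5, 57.2 and 56.7 CPM with c-di-GMP, so that the groups overlapped, and 112 CPM in vehicle replicate 3. Its log2 fold change was 0.15 ± 0.06 (adjusted p = 0.0495), the highest adjusted p among the 20 rises. DESeq2 did not call it (adjusted p = 0.0605), and of the fits with 1 library left out the call was kept only without vehicle replicate 2 or without c-di-GMP replicate 1. Genes on the opposite strand share 24.2% of its exon bases. EIF4E3 was scarce, at 4.01 to 5.24 CPM in the 7 libraries, and did not pass (95% interval -0.14 to 0.41).

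The eIF4E-binding proteins hold eIF4E back from the scaffold until mTOR phosphorylates them. EIF4EBP2 (chr10:70404379-70428618, plus strand) stood at 169, 179 and 179.7 CPM in replicates 1, 2 and 4 of the vehicle group, at 186, 201, 189 and 194 CPM in replicates 1 to 4 of the c-di-GMP group and at 78.2 CPM in vehicle replicate 3, and all c-di-GMP libraries exceeded all 4 vehicle libraries. It rose by 0.13 ± 0.04 on the log2 scale (adjusted p = 0.0229), a call lost without c-di-GMP replicate 2 or 4. EIF4EBP1, the best studied of the family and per length the more abundant of the pair, read 60.1, 55 and 58.3 FPKM in vehicle replicates 1, 2 and 4, 55.3, 51.3, 60.3 and 56.6 FPKM in c-di-GMP replicates 1 to 4 and 272 FPKM in vehicle replicate 3. It did not pass (log2 fold change -0.07 ± 0.06, adjusted p = 0.391). EIF4ENIF1, the transporter of eIF4E, did not pass (95% interval -0.24 to 0.05).

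Among the scaffolds, EIF4G2 rose and the classical pair did not pass. EIF4G2 (chr11:10797050-10809110, minus strand), also called DAP5, lacks the site for eIF4E and serves initiation without it. It stood at 833, 911 and 887 CPM in replicates 1, 2 and 4 of the vehicle group, at 1027, 1015, 1022 and 1034 CPM in replicates 1 to 4 of the c-di-GMP group and at 548 CPM in vehicle replicate 3, with means of 877 ± 39.8 CPM (SD, n = 3) for the vehicle group and 1024 ± 8.11 CPM (SD, n = 4) for the treated one. Every c-di-GMP library was above every vehicle library, and the c-di-GMP libraries lay at 1015 to 1034 CPM. The log2 fold change was 0.22 ± 0.04 (adjusted p = 0.000198), and it was 0.23 ± 0.11 with all 8 libraries, where DESeq2 called it and edgeR did not. EIF4G1 (chr3:184314495-184335358, plus strand), the main scaffold, read 1291, 1164 and 1168 CPM with vehicle, 1136, 1169, 1139.9 and 1137 CPM with c-di-GMP and 536 CPM in vehicle replicate 3. Its log2 fold change was -0.08 ± 0.04 (95% interval -0.16 to 0.01, adjusted p = 0.196). EIF4G3 had 0.06 ± 0.04 (adjusted p = 0.319). Per length, EIF4G1 was 1.62, 1.34 and 1.38 times EIF4G2 in vehicle replicates 1, 2 and 4, 1.16, 1.21, 1.17 and 1.15 times in c-di-GMP replicates 1 to 4 and 1.03 times in vehicle replicate 3. Outside vehicle replicate 3 the ratio was thus lower in each c-di-GMP library than in each vehicle library, a description with no test of its own.

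The helicase eIF4A unwinds the leader of the mRNA. EIF4A2 (chr3:186783205-186789900, plus strand) stood at 293, 326 and 333 CPM in replicates 1, 2 and 4 of the vehicle group, at 356, 359, 386 and 381 CPM in replicates 1 to 4 of the c-di-GMP group and at 256 CPM in vehicle replicate 3, and every c-di-GMP library was above every vehicle library. It rose by 0.22 ± 0.05 on the log2 scale (adjusted p = 0.000613). Other genes, among them small nucleolar RNAs of its introns, share 17.9% of its exon bases. EIF4A1 (chr17:7572706-7579005, plus strand), the closely related copy, held only 146 to 195 counts in the 7 libraries and 19 in vehicle replicate 3. Its exons share 48.6% of their bases on the same strand with other annotated genes, SENP3-EIF4A1 among them, so that its listed level is uncertain, and its low value is no measure of the helicase in these cells. The log2 fold change was -0.18 ± 0.10 (adjusted p = 0.184). EIF4A3, the paralog in the exon junction complex, had 0.05 ± 0.04, and the helicase cofactors EIF4B and EIF4H had 0.03 ± 0.04 and -0.04 ± 0.04; none of these 3 passed. EIF4H (chr7:74174245-74197101, plus strand) had the highest level per length of EIF4A1, EIF4A2, EIF4A3, EIF4B and EIF4H in the 7 libraries, with 162, 164 and 158 FPKM in vehicle replicates 1, 2 and 4, 163, 162, 157 and 152 FPKM in c-di-GMP replicates 1 to 4, but only 21.2 FPKM in vehicle replicate 3, below EIF4A2, EIF4A3 and EIF4B there. Over eIF4 as a whole 5 of 14 genes rose, 0 fell, and the median log2 fold change was 0.05.

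eIF1 and eIF1A hold the scanning ribosome open until a start codon is found. EIF1B (chr3:40309684-40312424, plus strand), a paralog of EIF1, stood at 24.3, 24.3 and 24.7 CPM in replicates 1, 2 and 4 of the vehicle group, at 29.5, 28.2, 29.4 and 30.5 CPM in replicates 1 to 4 of the c-di-GMP group and at 44.8 CPM in vehicle replicate 3. It had the largest log2 fold change among the 20 rises, 0.26 ± 0.06 (adjusted p = 0.00226), with groups that do not overlap outside vehicle replicate 3. EIF1 itself, per length the more abundant, read 95.8, 103 and 99.96 FPKM with vehicle, 111, 104, 108 and 109 FPKM with c-di-GMP and 268 FPKM in vehicle replicate 3. It did not pass (log2 fold change 0.10 ± 0.04, adjusted p = 0.079). EIF1AX (chrX:20124518-20141844, minus strand), which encodes eIF1A, read 173, 182 and 187 CPM and 202, 197, 195 and 199.8 CPM, with 199 CPM in vehicle replicate 3, inside the range of the c-di-GMP libraries. Its log2 fold change of 0.13 ± 0.04 (adjusted p = 0.0171) passed, and the call was lost without c-di-GMP replicate 1 or 4. EIF1AD had -0.01 ± 0.06 and did not pass. Thus 2 of 4 rose.

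EIF5 and EIF5B act when the start codon has been found: eIF5 triggers GTP hydrolysis by eIF2, and eIF5B joins the subunits. EIF5 (chr14:103333544-103345025, plus strand) stood at 295, 306 and 303 CPM in replicates 1, 2 and 4 of the vehicle group, at 349, 326, 327 and 336 CPM in replicates 1 to 4 of the c-di-GMP group and at 237 CPM in vehicle replicate 3, so that the c-di-GMP libraries exceeded all 4 vehicle libraries. EIF5B (chr2:99337353-99401326, plus strand) read 211, 245 and 239 CPM with vehicle and 258, 269.8, 275 and 269 CPM with c-di-GMP, but 456 CPM in vehicle replicate 3. Both rose, EIF5 by 0.15 ± 0.04 (adjusted p = 0.00731), lost without c-di-GMP replicate 1, and EIF5B by 0.21 ± 0.05 (adjusted p = 0.00124). EIF5A (chr17:7306999-7312463, plus strand), which carries hypusine and helps elongation and termination, had the highest level per length of all 49 in the 7 libraries, with 182, 192 and 175 FPKM in vehicle replicates 1, 2 and 4, 199, 193, 199.9 and 194 FPKM in c-di-GMP replicates 1 to 4 and 224 FPKM in vehicle replicate 3, where EIF3I was highest. It did not pass (log2 fold change 0.09 ± 0.04, adjusted p = 0.119). Its paralog EIF5A2 and its retrocopy EIF5AL1 stood at 30.5 to 36.3 and 11.5 to 13.7 CPM in the 7 libraries and did not pass. EIF6, which keeps the large subunit from joining early, read 132, 133 and 127 FPKM and 129, 121, 131 and 129.5 FPKM, with 174 FPKM in vehicle replicate 3, and did not pass (95% interval -0.13 to 0.03).

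The change of a member went with the GC content of its transcript. The median GC content of the longest transcript was 40.4% for the 20 genes that rose and 49.6% for the other 29. Below 42% GC 12 of 15 members rose, where 28.95% of all such genes rose, and above 50% GC 1 of 13 rose, EIF3K, where 3.15% of all such genes rose. Spearman's rho between GC content and log2 fold change was -0.70 over the 49 members and -0.59 over all genes, as a description across genes that share the same 7 libraries. When each library's trend on GC content was entered as an offset, 14 of the 49 rose (28.6%) and 2 fell (4.08%), where 8.58% of all genes rose and 6.62% fell, and the median log2 fold change was 0.06. The rises of 8 genes were called both ways: EIF1B, EIF2S1, EIF2S2, EIF2B3, EIF3H, EIF3J, EIF3K and EIF4G2. EIF2S1 then had 0.12 ± 0.03 (edgeR adjusted p = 0.0168), EIF4G2 0.11 ± 0.03 (adjusted p = 0.0137) and EIF3J 0.12 ± 0.04 (adjusted p = 0.0499). The other 12, EIF1AX, EIF2A, EIF2B1, EIF2S3, EIF3E, EIF3M, EIF4A2, EIF4E, EIF4E2, EIF4EBP2, EIF5 and EIF5B, lost their call. Among them were EIF4E with 0.07 ± 0.04 (adjusted p = 0.297), EIF4A2 with 0.10 ± 0.03 (adjusted p = 0.0548), EIF2S3 with 0.05 ± 0.03 (adjusted p = 0.383) and EIF1AX with -0.01 ± 0.03 (adjusted p = 0.88).

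In 6 genes of higher GC content a rise was called only after the correction. EIF4EBP1 had 0.29 ± 0.05 (adjusted p = 0.000131) at 65.5% GC, EIF5A had 0.23 ± 0.04 (adjusted p = 0.000108) and EIF3G had 0.18 ± 0.03 (adjusted p = 0.000382). EIF6, EIF3D and EIF3B had 0.11 ± 0.04, 0.11 ± 0.03 and 0.09 ± 0.03, with adjusted p of 0.0433, 0.0218 and 0.0469. EIF3F, at 40.6% GC, fell after correction (-0.17 ± 0.04, adjusted p = 0.00227), and EIF3CL fell both ways. By group, the GC-corrected rises were 1 of 4 in eIF1, 3 of 11 in eIF2 and eIF2B, 6 of 14 in eIF3, 2 of 14 in eIF4, 1 of 5 in eIF5 and EIF6. The count of 16 calls depended on single libraries: it was 10 without vehicle replicate 1, 6 without vehicle replicate 4, 9 without c-di-GMP replicate 3 and 7 without c-di-GMP replicate 4. With gene length corrected as well, 14 rose (28.6%) and 2 fell (4.08%), where 7.42% of all genes rose and 5.66% fell. These took in 9 of the 20 uncorrected rises: EIF2S1, EIF2S2, EIF3H and EIF4G2, called under all 3 fits, and EIF3M, EIF4A2, EIF4E, EIF4EBP2 and EIF5B, whose calls GC correction alone had ended. The other 4 of the 8 rises that GC correction had left, EIF1B, EIF2B3, EIF3J and EIF3K, did not pass. Of the 6 genes called only with GC correction, EIF3B, EIF3G, EIF4EBP1 and EIF5A passed again, while EIF6 had 0.0051 ± 0.03 (adjusted p = 0.938) and EIF3D 0.06 ± 0.03 (adjusted p = 0.191). EIF4G1 rose in this fit and in neither of the other 2 (0.10 ± 0.03, adjusted p = 0.00877). Whether the trend on GC content arose in the cells or in library preparation was not tested.

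**Figure D4:**
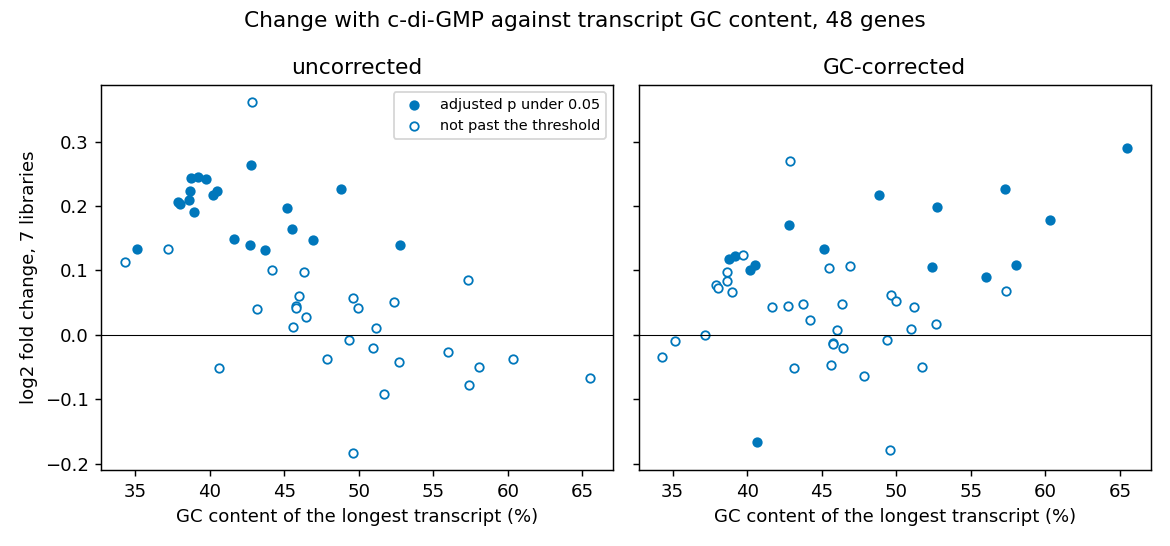
Log2 fold change (vertical axis, 7 libraries) of 48 initiation factor genes against GC content of the longest transcript (horizontal axis, %), uncorrected on the left and GC-corrected on the right, with filled points past the adjusted threshold. EIF3CL, at -1.63 uncorrected and -1.55 corrected, is left off. The uncorrected values slope downward with GC content (rho -0.70 over the 49 genes), and the corrected values do not (rho 0.08).

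Summed over all 49 genes, the initiation factors took 0.985, 1.01 and 0.995% of the counts in vehicle replicates 1, 2 and 4, 1.05, 1.04, 1.06 and 1.05% in c-di-GMP replicates 1 to 4 and 1.01% in vehicle replicate 3. Each c-di-GMP library thus had a larger share than each vehicle library. eIF4 took the most, 0.389, 0.391 and 0.388% with vehicle and 0.404, 0.408, 0.407 and 0.406% with c-di-GMP, followed by eIF3 with 0.296, 0.303 and 0.298% and 0.31, 0.305, 0.311 and 0.307%. eIF5 took 0.109, 0.118 and 0.112% and 0.125, 0.122, 0.124 and 0.124%, and eIF2 with eIF2B 0.106, 0.114 and 0.111% and 0.12, 0.121, 0.127 and 0.126%.

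**Figure D5:**
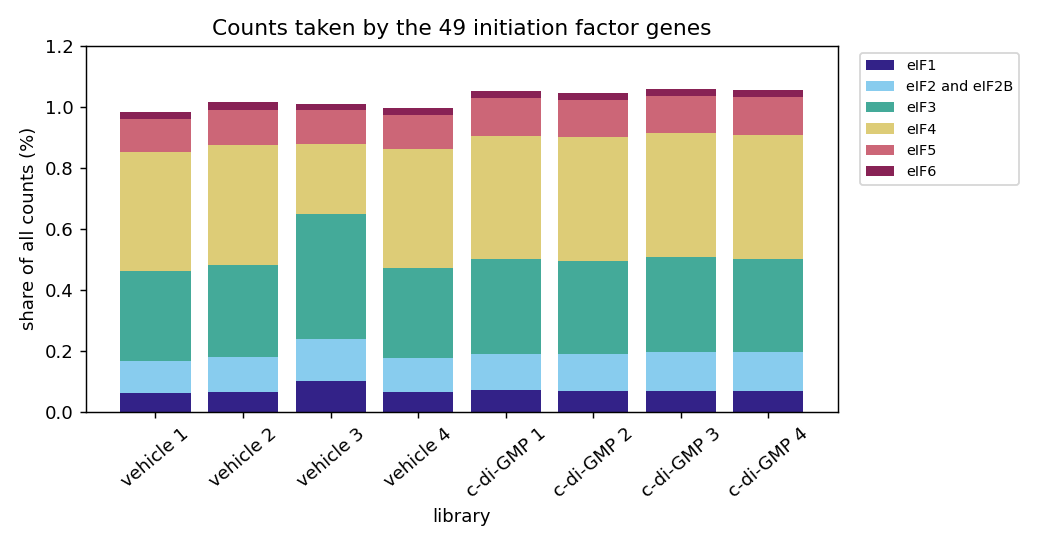
Share of all counts (vertical axis, %) taken by the initiation factor genes in each of the 8 libraries, stacked by group. The total lies between 0.985 and 1.01% in the 4 vehicle libraries and between 1.04 and 1.06% in the 4 c-di-GMP libraries, and vehicle replicate 3 has more eIF3 and less eIF4 than the others.

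Vehicle replicate 3 had an ordinary total but a different make-up, with 0.41% of its counts in eIF3 and 0.229% in eIF4. It lay outside the range of the other 7 libraries for 47 of the 49 genes in CPM, the exceptions being EIF1AX and EIF3CL. The share of all genes outside that range was not computed, so this count is no result about these genes in particular. Against the mean of the other 3 vehicle libraries it was at least 2-fold above for 8 members (16.3%), where 12.9% of all genes were, and at least 2-fold below for 11 (22.4%), where 43.8% were. On the TMM scale these counts became 20 and 7, and on the FPKM scale 19 and 7, so that its direction depended on the scaling. It was above on all 3 scales for 22 genes and below on all 3 for 15. Shares over all genes were computed for the CPM counts only, so the other counts cannot be called particular to these genes. EIF3K stood at 10342 counts there and at 1499 to 1826 counts in the other 7 libraries, EIF3M at 9274 against 2747 to 3346, EIF4H at 782 against 8919 to 10161, and EIF3L at 65 against 1727 to 1959. EIF3L and EIF3K encode partners in the same eIF3 complex, yet in this library one was 26.5 times lower and the other 6.74 times higher in CPM than in the other vehicle libraries. Spearman's rho between this ratio and gene length was -0.21 over the members and -0.27 over all genes, a description with no test.

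Where a factor is encoded by several copies, their balance is given per length. EIF1 was 8.01, 8.73 and 8.36 times EIF1B in FPKM in vehicle replicates 1, 2 and 4 and 7.6, 7.44, 7.47 and 7.32 times in c-di-GMP replicates 1 to 4, lower in every c-di-GMP library. EIF4EBP1 was 2.75, 2.39 and 2.55 times EIF4EBP2 with vehicle and 2.29, 1.96, 2.45 and 2.26 times with c-di-GMP, with overlap, but 17.3 times in vehicle replicate 3. EIF5A was 35.4, 33.6 and 33.7 times EIF5A2 with vehicle, 33.7, 32.6, 36.6 and 31.8 times with c-di-GMP and 72.2 times in vehicle replicate 3. EIF4E was 12.5, 12 and 13.4 times EIF4E3 with vehicle and 12.3, 12.7, 15.3 and 12.5 times with c-di-GMP. EIF4A2 was 1.72, 1.89 and 2.1 times EIF4A3 with vehicle, 2.11, 2.07, 2.16 and 2.26 times with c-di-GMP and 0.966 times in vehicle replicate 3. These ratios are descriptions and were not tested. EIF1AY, EIF4EBP3 and EIF4E1B were not among the listed genes.

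Other genes of translation were read from the same fits, 63 genes in 5 lists. With all 8 libraries edgeR called 0 of them (4 under 0.05 before adjustment), DESeq2 2 and limma-voom 0. Without vehicle replicate 3, 18 rose and 10 fell, where 13.5% of all genes rose and 16.2% fell. After GC correction 8.58% of all genes rose and 6.62% fell, shares to set beside the counts of each list. With all 8 libraries the log2 fold change was negative for 10 of the 18 rises and positive for 2 of the 10 falls. Of 11 genes of the eIF2 kinases and phosphatase, 2 rose and 2 fell without vehicle replicate 3, and 2 and 2 after GC correction, with 1 gene, PPP1CC, shared between the calls. PPP1CC, a catalytic subunit of the phosphatase, rose by 0.29 ± 0.04 on the log2 scale (adjusted p = 3.06e-05), and EIF2AK1, the haem-regulated kinase, by 0.13 ± 0.04 (adjusted p = 0.0269). GCN1, the activator of the kinase GCN2, had -0.17 ± 0.04 (adjusted p = 0.00321) and fell, as did PPP1R15A, the stress-induced subunit that directs the phosphatase to eIF2, with -0.20 ± 0.05 (adjusted p = 0.00534). After GC correction PPP1CC was still called, with 0.20 ± 0.04, and with all 8 libraries it had -0.23 ± 0.36. EIF2AK1, GCN1 and PPP1R15A lost their calls with the correction (adjusted p = 0.0969, 0.341 and 0.779), and PPP1CA rose while EIF2AK4 and PPP1R15B fell. PPP1CA then had 0.18 ± 0.03 (adjusted p = 0.000698), EIF2AK4 -0.12 ± 0.03 (adjusted p = 0.0179) and PPP1R15B -0.12 ± 0.04 (adjusted p = 0.0355). Of 15 regulators of the cap complex 3 rose and 4 fell, and 3 and 3 after correction, of which 2 rises and 3 falls were shared. MKNK2, a kinase of eIF4E, had -0.39 ± 0.05 (adjusted p = 4.51e-06) and fell. So did the mTOR inhibitor TSC2, with -0.36 ± 0.05 (adjusted p = 7.35e-06), and the mTOR partner RPTOR, with -0.36 ± 0.05 (adjusted p = 1.82e-05). Over all 8 libraries MKNK2 had -0.15 ± 0.30, TSC2 -0.08 ± 0.36 and RPTOR -0.0029 ± 0.55, and none passed. Vehicle replicate 3 stood at 27.3, 20 and 8.3 CPM in that order, below every c-di-GMP library. The ribosomal protein gene RPS6 rose by 0.22 ± 0.05 (adjusted p = 0.00067), but with all 8 libraries it had -1.35 ± 0.78, and vehicle replicate 3 stood at 2228 CPM against 375 to 417 CPM in the other vehicle libraries. All 4 of these were also called after GC correction, with -0.13 ± 0.04, -0.14 ± 0.04, -0.16 ± 0.04 and 0.13 ± 0.04.

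Of 15 poly(A)-binding and accessory genes 7 rose and 1 fell, and 5 rose and 3 fell after GC correction. Of these, 4 rises and 1 fall were shared. The shares over all genes were 13.5% and 16.2%, and 8.58% and 6.62% after correction. DENR and MCTS1, partners in reinitiation, rose by 0.24 ± 0.05 (adjusted p = 0.000365) and 0.28 ± 0.06 (adjusted p = 0.000517), and the helicase DHX29, which helps on structured leaders, by 0.23 ± 0.05 (adjusted p = 0.000952). These 3 were called after correction as well, with 0.12 ± 0.03, 0.19 ± 0.05 and 0.11 ± 0.04. Over all 8 libraries DENR had -0.50 ± 0.46, MCTS1 -1.15 ± 0.73 and DHX29 0.10 ± 0.14, and none passed. LARP4, which binds poly(A), rose by 0.23 ± 0.05 (adjusted p = 0.000484), a call lost after correction (adjusted p = 0.0652). Of 12 elongation genes 4 rose and 3 fell, and 3 rose and 0 fell after correction, of which 2 rises were shared. EEF1A2, EEF1D and EEF2 fell by 0.50 ± 0.08, 0.27 ± 0.04 and 0.26 ± 0.05 (adjusted p = 2.97e-05, 3.66e-05 and 0.000322), and after correction none of the 3 passed. EEF1B2 rose by 0.20 ± 0.04 (adjusted p = 0.000877) and was called after correction, with 0.19 ± 0.03. Over all 8 libraries EEF1B2 had -0.81 ± 0.57 and EEF2 0.07 ± 0.46. Of 10 genes of termination and rescue 2 rose and 0 fell, and 1 and 1 after correction, with the rise of ABCE1 shared. ABCE1, which splits the ribosome after termination, rose by 0.25 ± 0.04 (adjusted p = 0.000111) and was called after correction, with 0.12 ± 0.03, while the release factor gene ETF1 rose by 0.17 ± 0.04 (adjusted p = 0.00536) and was not (adjusted p = 0.105).

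The 250 bases before the RefSeq start were searched on both strands for 3 motifs named for the factors known to bind them. The E-box CACGTG, bound by MYC and its relatives, was found in 10 of the 41 matched genes (24.4%), against 6.49% of all 27305 promoters, and 4 of these 10 genes rose. CCGGAAG, a core of ETS sites, was found in 8 (19.5%), against 8.82%, and 4 of the 8 rose. TGATGNAA, the form bound by the stress factor ATF4, was found in 0 of 41, against 3.19%. EIF3F, EIF3K and EIF4B held both an E-box and a TOP-like start, EIF2A, EIF3M, EIF4E2 and EIF2S3B both a CCGGAAG and a TOP-like start, and EIF5A2 both an E-box and a CCGGAAG. The E-box is shown in capitals in its flanks for the cap-binding protein, the scaffold and 2 genes whose rise was kept under GC correction.
EIF4E, chr4:98929336-98929375, minus strand: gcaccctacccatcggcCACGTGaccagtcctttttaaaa
EIF4G1, chr3:184314445-184314484, plus strand: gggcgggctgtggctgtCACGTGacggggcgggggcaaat
EIF1B, chr3:40309636-40309675, plus strand: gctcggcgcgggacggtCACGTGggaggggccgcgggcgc
EIF2B3, chr1:44986752-44986791, minus strand: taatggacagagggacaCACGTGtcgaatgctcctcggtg
EIF4E, EIF1B and EIF2B3 rose and EIF4G1 did not pass. A match is no evidence of binding in these cells.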

How the data were processed

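RNA of 4 vehicle and 4 c-di-GMP libraries of MDA-MB-231 cells was sequenced. The submitters' processing notes name the aligner HISAT2 2.0.5, the counter featureCounts 1.5.0-p3, and also fastp, CASAVA 1.8 and DESeq2 1.20.0, without how each was used, and the mouse build mm10, although all 16383 genes of the deposited count table have their coordinates in human GENCODE release 29 (GRCh38). The authors deposited read counts per gene and, in a second table, FPKM values. Whether the counting kept strand, and how reads matching several copies were assigned, is not given in the sources used here.

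All genes kept by filterByExpr (10 counts, 15 in total) were scaled by TMM and fitted in edgeR 4.0.16 (R 4.3.3) with treatment alone. The quasi-likelihood test was applied with all 8 libraries and without vehicle replicate 3, and a gene was called at an adjusted p (Benjamini-Hochberg) under 0.05. Levels are CPM of library totals; FPKM serves to compare genes per length. The GC correction entered a lowess trend (span 0.3) of each library on transcript GC content (longest transcript) as an offset. The SE of an edgeR log2 fold change is its absolute value divided by the square root of the F of the quasi-likelihood test. Intervals (95%) are the estimate ± 1.96 SE. This normal multiplier makes them narrower than the test implies: EIF2S3B had 0.0056 to 0.716 at an unadjusted edgeR p of 0.0576. DESeq2 1.42.0, limma 3.58.1 and the other alternatives are in the closing section. Both fits were tested on simulated data that held 50 changed genes per fold size, with the same spread for all genes and no trend on GC content.

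Without vehicle replicate 3 the replicate numbers of the titles did not pair the libraries (correlation of deviations -0.009 to 0.015 over the 3 pairs). With that library included, the correlations were -0.00034, 0.18, 0.12 and -0.06 for replicates 1 to 4. Every member may be named; values by library are given for rises whose groups do not overlap, the most abundant member of each group and gene copies, and of each other list up to 4 genes with the smallest p. The members, the lists and the use of 7 libraries were chosen with earlier results of these data known.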

Additional observations from a re-analysis of the deposited data

Results flagged for a closer look

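In 28 of 98 gene-by-group sets of 4 libraries, 1 library lay far from the other 3: its gap to the nearest exceeded Dixon's 95% critical share of the whole range, which chance gives in about 1 in 20 sets. In 27 of the 28 that library was vehicle replicate 3, in 17 as the highest and in 10 as the lowest of the vehicle libraries in CPM. That library stood apart across all genes, and the share of such sets over all genes was not computed. The counts therefore describe the library and are no result about these genes in particular. Among the eIF3 genes it was the highest for EIF3I at 544, EIF3F at 368, EIF3M at 549.9, EIF3H at 263, EIF3D at 251 and EIF3K at 613 CPM. Among eIF2 and eIF2B it was the highest for EIF2S2 at 471, EIF2B1 at 92.4, EIF2B4 at 122 and EIF2B3 at 126 CPM. It was also the highest for EIF1 at 666, EIF5B at 456, EIF4A3 at 215, EIF4EBP1 at 201, EIF4E2 at 112, EIF1AD at 85.3 and EIF1B at 44.8 CPM. It was the lowest of the eIF4 genes for EIF4G1 at 536, EIF4H at 46.4, EIF4EBP2 at 78.2, EIF4G3 at 35.4 and EIF4A1 at 1.13 CPM, and of the others for EIF3A at 243, EIF5 at 237, EIF3L at 3.85, EIF2B5 at 50.5 and EIF5A2 at 11.9 CPM. The remaining set was EIF4G1 with c-di-GMP, where replicate 2 was the highest at 1169 CPM and the other 3 libraries lay close together.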

How the results depend on the processing

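With all 8 libraries the count of calls was 0 under every alternative run except DESeq2, which called 1, and leaving out vehicle replicate 3 (range over left-out libraries 0 to 21). The median was 0.079 with library totals and -0.16 to 0.10 over left-out libraries. Over all 8 libraries no member had an adjusted p under 0.05 by edgeR, and 12 of the genes that rose without vehicle replicate 3 were negative in all 8 libraries and whenever another library was left out: the lowest and highest values over left-out libraries were -0.20 and 0.13 for EIF1AX, -0.44 and 0.26 for EIF1B, -0.36 and 0.16 for EIF2B1, -1.07 and 0.23 for EIF2B3, -0.18 and 0.25 for EIF2S1, -0.54 and 0.20 for EIF2S2, -0.33 and 0.21 for EIF3E, -0.28 and 0.22 for EIF3H, -1.95 and 0.14 for EIF3K, -1.11 and 0.20 for EIF3M, -0.73 and 0.15 for EIF4E2, and -0.58 and 0.21 for EIF5B. Without vehicle replicate 3 the count of 21 lay between 15 and 23 over left-out libraries. A replicate block gave 19 calls (0 with all 8 libraries), and the block with GC correction gave 7, with a median of 0.056. Replicate numbers did not pair the libraries once vehicle replicate 3 was left out. The median was 0.062 with GC correction and 0.061 with GC and length correction. With GC correction and each library left out, a combination chosen after seeing the data, the count of 16 ranged from 6 to 19. Signs changed, where the value passed on 1 side, for EIF1AX (-0.010 with GC correction, -0.0052 with the block as well), EIF3B (0.089 with GC correction, 0.094 with length too), EIF3G (0.18, 0.091 and, with block and GC correction, 0.18), EIF4EBP1 (0.29, 0.17 and 0.26 likewise), EIF6 (0.11 with GC correction) and EIF4G1 (0.10 with GC and length correction). The cause was not tested. Of 1027 single-gene values without vehicle replicate 3, 882 kept their sign and side of the threshold, 75 lost the call, 10 gained one, 12 changed sign with a call and 48 changed sign with none. Of 1076 with all 8 libraries, 1010 kept both, 10 gained a call, 12 changed sign with a call and 44 with none. In the fit without vehicle replicate 3, EIF2S3B and EIF4E3, the members with the fewest counts, had the widest intervals after EIF3CL.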
